A study of Homo sapiens with 12 samples.

Results

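BIRC5, BIRC2, BIRC3, BIRC6 and XIAP code for inhibitor of apoptosis proteins (IAPs), and EPR1 is listed as antisense to BIRC5. They were followed in 2 cancer cell lines treated with inhibitors of the co-activator CBP or, as proposed, of both CBP and p300. BIRC5 codes for survivin. The 6 genes were taken by name from a table of 34687 genes, and all 6 had a row. EPR1 was selected on its measured signal, which was higher with drug than with DMSO in all 8 comparisons, so this direction is given as a description. The other 5 genes were included as IAP genes.

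HCT116, a human colorectal cancer line, and PANC1, a human line from a pancreatic ductal carcinoma, were treated for 12 or 96 h with ICG-001 or C646, each at 10 uM, or with the solvent DMSO at 0.05% as the control. ICG-001 binds CBP and blocks its contact with β-catenin. C646 competes for the acetyltransferase site of p300. Per the study, its action on CBP as well was proposed from the likeness of the 2 proteins, without a direct comparison. Per the study's methods, medium and drug were renewed daily, and cells for the 96 h treatments started at a lower density than those for 12 h and were passaged, so time and culture conditions cannot be told apart. The study compared the effects of blocking CBP alone with those of inhibiting both co-activators, and the comparisons here ask this of the IAP genes. Each of the 12 combinations of line, treatment and time point had 1 column of signal intensity from Illumina HumanHT-12 BeadChips. Each column is the authors' mean of 2 arrays, except PANC1 ICG-001 at 12 h, which is a mean of 3.

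IAPs share a zinc-binding fold, the BIR domain. XIAP binds and inhibits caspases directly. cIAP1, the product of BIRC2, and cIAP2, the product of BIRC3, are ubiquitin ligases of TNF receptor complexes that keep cells from dying and restrain the non-canonical NF-kB pathway, and BIRC3 is itself a classical NF-kB target. Survivin has a single BIR domain and acts with AURKB, INCENP and CDCA8 in the chromosomal passenger complex, which corrects chromosome attachments and guides cytokinesis, so its transcript peaks in mitotic cells. BIRC5 is also known as a WNT target in colon cancer cells. EPR1 has been described as a transcript complementary to BIRC5, copied from the opposite strand.

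In the RefSeq annotation of GRCh38.p14, BIRC5 lies at chr17:78214253-78225635, BIRC6 at chr2:32357023-32618878 and XIAP at chrX:123859708-123913972. BIRC3 (chr11:102317484-102339403) and BIRC2 (chr11:102347214-102378670) are neighbours on the same strand. EPR1 is not a current RefSeq symbol. The spelling EPR-1 is an older name of 2 RefSeq genes, BIRC5 and ELF3. The sequence and strand of the EPR1 probe were not used here, so that the row measures an antisense transcript of BIRC5 was not tested.

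Promoter sequence is shown for BIRC3 and BIRC2, adjacent genes related in sequence, because BIRC3 reached 1.5-fold against DMSO and BIRC2 did not. Whether their responses differed was not tested, nor was any link of the promoter letters to the signals. The 250 bases before each start were taken from RefSeq (GRCh38.p14, plus strand), at chr11:102317234-102317483 for BIRC3 and chr11:102346964-102347213 for BIRC2. Capitals mark matches to the NF-kB motif, all other bases are in lower case.
BIRC3: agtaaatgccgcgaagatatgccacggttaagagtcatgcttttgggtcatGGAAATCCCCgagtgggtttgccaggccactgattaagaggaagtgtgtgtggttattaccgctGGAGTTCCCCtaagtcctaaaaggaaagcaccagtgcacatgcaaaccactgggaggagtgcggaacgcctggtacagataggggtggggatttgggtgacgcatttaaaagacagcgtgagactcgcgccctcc
BIRC2: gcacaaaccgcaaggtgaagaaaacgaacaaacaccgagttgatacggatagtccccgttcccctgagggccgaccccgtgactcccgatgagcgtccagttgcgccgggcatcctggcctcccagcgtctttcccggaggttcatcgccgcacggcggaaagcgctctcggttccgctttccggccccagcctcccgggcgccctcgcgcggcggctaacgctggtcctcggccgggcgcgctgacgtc

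The BIRC3 window held 2 matches to the NF-kB motif, GGAAATCCCC at 199 to 190 bases and GGAGTTCCCC at 135 to 126 bases before the start. These are the letters of the plus strand as printed, and in both the motif was matched on the minus strand. The BIRC2 window held 0 matches to it. RefSeq lists 2 windows for BIRC2, and the one shown lies at the annotated start of the gene. The search covered both strands, and 9.96% of the 35116 RefSeq promoter windows of that length held at least 1 match. Neither of the windows shown held the CRE motif TGACGTCA (in 1.65% of all windows), the C/EBP-ATF element TGATGNAA (3.14%) or the GC box GGGCGG (42.6%). The BIRC2 window shown ends in the CRE motif without its last letter, and a match across that edge would not have been counted. The other BIRC2 window, not shown, held 0 matches to the NF-kB motif and to the C/EBP-ATF element, 1 to the CRE and 1 to the GC box. A match describes the letters of the window and not a bound site.

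Median signals lay between 139.1 and 139.6 in HCT116 and between 132.7 and 133.5 in PANC1, over 6 columns each. The detection limit, 2.33 SD above the peak of background signals, was 145.3 to 146.2 in HCT116 and 137.6 to 139.8 in PANC1. Background had been left in the signals, so ratios of dim genes understate their changes. Signals were compared within a line. Vimentin (VIM), a mesenchymal marker, read 14637 to 18144 in PANC1 and 257 to 335 in HCT116, while EPCAM, an epithelial marker, read 6553 to 9562 in HCT116 and 509 to 873 in PANC1. The intestinal marker CDX2 was above the limit in all 6 HCT116 columns (354 to 452) and in all 6 PANC1 columns (187 to 223), but VIL1, another, was above it in 0. Of the other listed colon markers, LGALS4 was above the limit in 0 HCT116 and 5 PANC1 columns, and GPA33 in 5 of each. CDH1 read 885 to 1632 in HCT116 and 251 to 464 in PANC1. Of the duct markers in PANC1, KRT19 read 5006 to 11748, KRT8 2892 to 7608, SOX9 723 to 1462, KRT18 224 to 399 and KRT7 148 to 185. In HCT116 they read 7198 to 12027, 4030 to 5490, 399 to 1522.5, 268 to 444 and 140 to 389. Over DMSO and drug columns together, the ranges of these keratins and SOX9 thus overlapped between the lines. In DMSO alone, KRT7 was at or under the limit in HCT116 (142 at 12 h, 140 at 96 h). It was above the limit in PANC1 (158 and 160). Of 4 markers of other cell types, PTPRC (leukocytes) and PECAM1 (endothelium) were above the limit in 0 columns, while COL1A1 (173 to 217 in HCT116, 181 to 379 in PANC1) and CD68 (291 to 675 and 2042 to 3415) were above it in all. CD68 was at least 1.5-fold higher than DMSO in HCT116 with C646 (1.56-fold at 12 h, 1.54-fold at 96 h). It was lower in PANC1 with C646 at 12 h (log2 ratio -0.59). COL1A1 was 1.57-fold higher in PANC1 with C646 at 96 h. Some epithelial and duct markers also passed 1.5-fold against DMSO. KRT7 was 2.75-fold (12 h) and 2.40-fold (96 h) higher in HCT116 with ICG-001. In PANC1 with ICG-001 at 96 h, KRT19, KRT8 and EPCAM were lower (log2 ratios -1.17, -1.06 and -0.78). With C646 at 12 and 96 h, SOX9 was lower by -1.41 and -0.71 in HCT116 and by -0.96 and -0.88 in PANC1. The part of these markers in the results was not tested.

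All 6 genes were above the detection limit in all 12 columns. Across the 8 comparisons with DMSO, 11 of 48 ratios reached 1.5-fold, all of them higher with drug. EPR1 gave 8 of these, in the direction for which it was chosen, and BIRC3 gave 3, whereas BIRC5, BIRC2, BIRC6 and XIAP gave 0. Pooled over all genes tested in the 8 comparisons, 3.61% of ratios were at least 1.5-fold higher and 2.62% lower. In HCT116, 1 of the 6 genes reached 1.5-fold with ICG-001 at 12 h, where 9.49% of all genes tested did so in either direction, and 1 at 96 h, where 10.8% did. With C646, 2 of the 6 did at 12 h (4.4% of all genes) and 1 at 96 h (3.26%). For ICG-001 in PANC1, 2 of the 6 reached 1.5-fold after 12 h (2.67% of all genes) and 2 after 96 h (7.84%). For C646 in PANC1, 1 did after 12 h (7.09%) and 1 after 96 h (4.21%). EPR1 accounts for 1 gene in each of these counts by the way it was chosen. With 1 column per group there was no replicate check, no spread between replicates and no test, so all differences are sizes between columns. Both drugs at a time point share a DMSO column, and in bulk RNA a change in the share of cells carrying a transcript cannot be told apart from a change per cell.

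**Figure D1:**
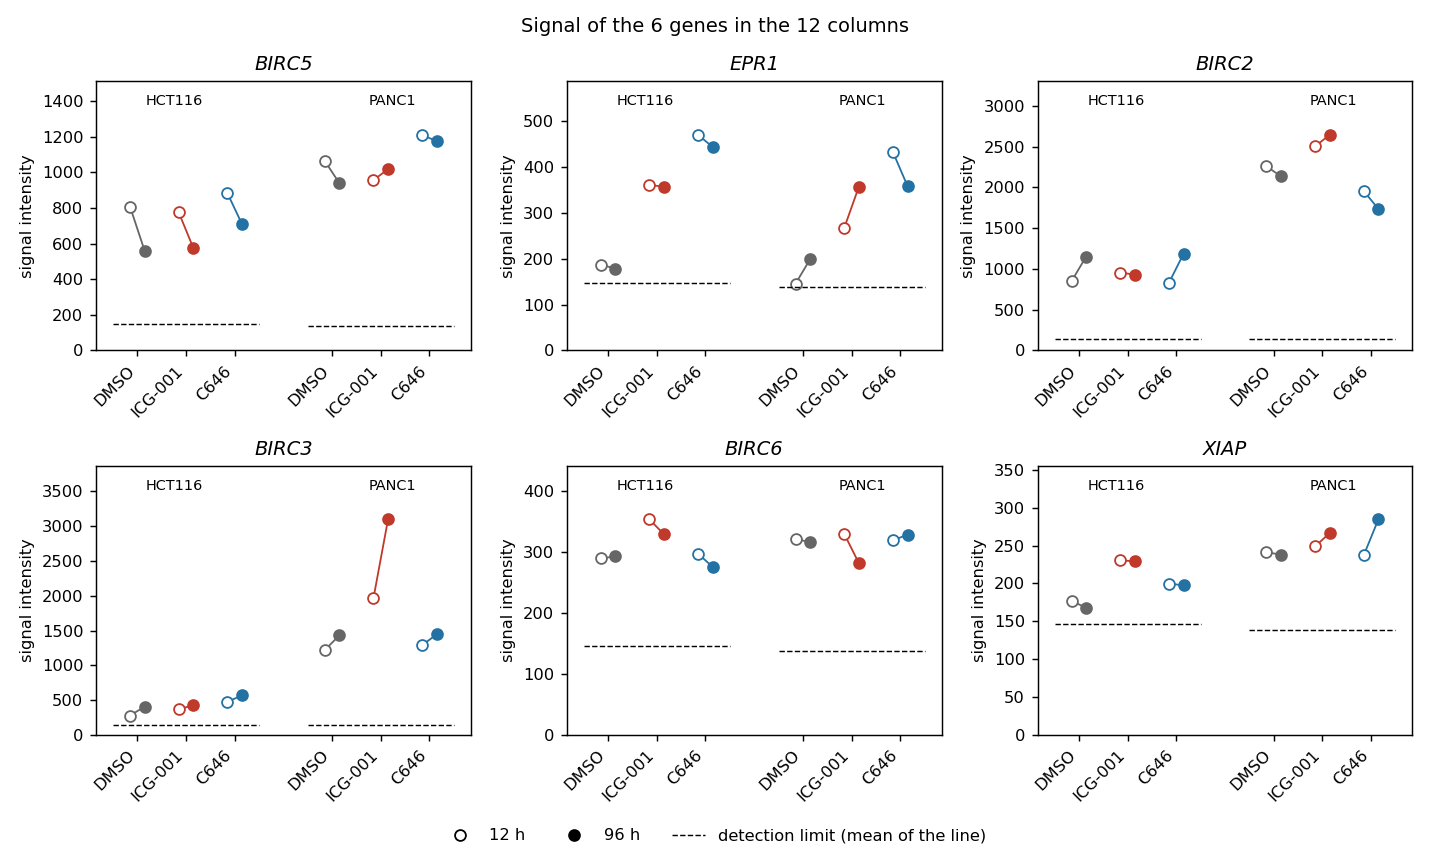
Signal intensity (linear scale, from 0) of the 6 genes in each of the 12 columns, with 1 point per column, open at 12 h and filled at 96 h, and a dashed line at the line's detection limit. Signals are comparable within a line. EPR1 is higher in the 4 drug columns than in both DMSO columns of each line, the BIRC3 signal peaks at 3098 for PANC1 ICG-001 at 96 h, and the BIRC5 DMSO columns of HCT116 lie as far apart as 808 and 560.2.

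BIRC5, which codes for survivin, differed from DMSO by less than 1.5-fold in all 8 comparisons. In HCT116, the BIRC5 signal at 12 h was 808 with DMSO, 776 with ICG-001 and 883 with C646. It was 560.2, 576 and 709 at 96 h. With ICG-001 the BIRC5 signal stayed within 0.06 (log2) of its DMSO column at both time points, and with C646 it was above it. In PANC1, the BIRC5 signal at 12 h was 1064 with DMSO, 956 with ICG-001 and 1209.8 with C646. The 96 h signals were 939, 1018 and 1175. On the log2 scale, the HCT116 ratios to DMSO were -0.06 (12 h) and 0.04 (96 h) for ICG-001, compared with 0.13 and 0.34 for C646. The PANC1 ratio was -0.15 and 0.12 for ICG-001 and 0.19 and 0.32 for C646. BIRC5 was thus higher with C646 than with DMSO in all 4 columns, as were 21.2% of the 13408 genes above the limit in those comparisons. For scale, the DMSO columns of HCT116 differed by -0.53 (log2, 96 h over 12 h), further apart than any of the 8 drug ratios of BIRC5. Against the DMSO column of the other time point, the direction of BIRC5 turned in 5 of the 8 comparisons, and in HCT116 with C646 at 12 h its ratio became 1.58-fold.

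With ICG-001 at 96 h, 3 of 8 listed genes of survivin's complex, docking and export were at least 1.5-fold lower in each line. In the same comparisons BIRC5 was within 0.12 (log2) of DMSO. The list held 8 genes of the chromosomal passenger complex, of its docking to chromatin and of its export, chosen for their roles. Like the other lists, it was chosen with earlier results of these data known, so its counts are a description. With ICG-001 at 96 h all 8 had a log2 ratio below 0 in both lines. In HCT116 3 of the 8 were at least 1.5-fold lower, against 5.38% of all genes tested, with a list median of -0.40 against 0.00 for all genes. In PANC1 3 of the 8 were at least 1.5-fold lower, against 3.77% of all genes, with a list median of -0.36. BIRC5 was above all 8 of them in both comparisons. This was not particular to ICG-001, since BIRC5 was also above all 8 with C646 in both lines at 12 and 96 h. Against the 12 h DMSO column, however, BIRC5 in HCT116 with ICG-001 at 96 h read -0.49 (log2), and the list was not recomputed against that column. With ICG-001 at 12 h, 2 of the 8 were at least 1.5-fold lower in HCT116 (4.39% of all genes) and 1 in PANC1 (0.357%), and BIRC5 itself was below DMSO, at -0.06 and -0.15.

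For ICG-001, the log2 ratio of INCENP, the scaffold of the complex, read -0.71 (12 h) and -0.64 (96 h) in HCT116 cells, and -0.21 and -0.63 in PANC1 cells. BUB1, the kinase whose histone mark recruits the complex through shugoshins, was lower in HCT116 with ICG-001 by -0.63 at 12 h and -1.53 at 96 h. The shugoshin SGO2 was the only gene of the list at least 1.5-fold lower with C646. In PANC1 cells treated with C646 its log2 ratio was -0.98 at 12 h and -0.71 at 96 h, and for ICG-001 it was -0.68 and -0.66. The kinase AURKB did not reach 1.5-fold in any of the 8 comparisons, with log2 ratios from -0.28 to 0.29, and CDCA8, the borealin subunit, ranged from -0.46 to 0.09.

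**Figure D2:**
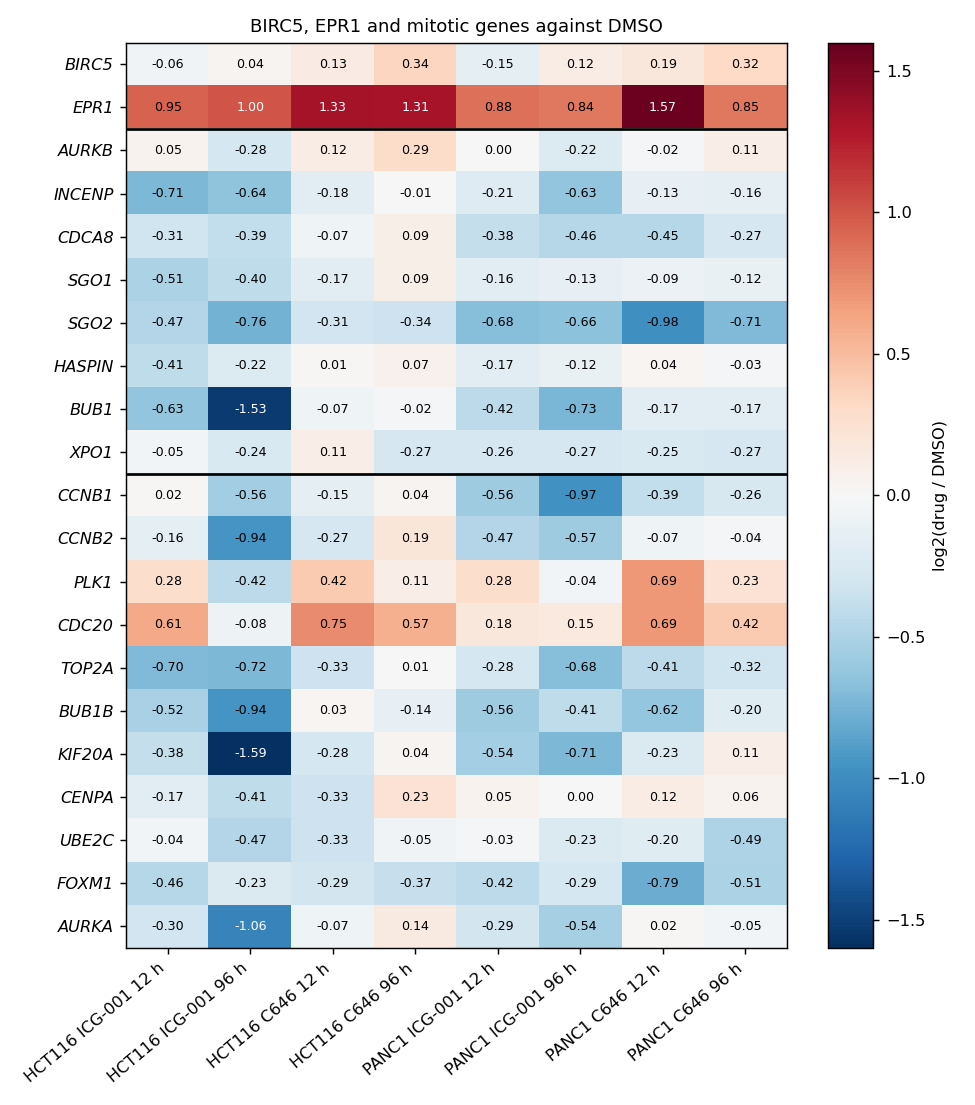
Log2 ratio of drug over DMSO for BIRC5 and EPR1 (top), the survivin complex and docking genes (middle) and late cell cycle genes (bottom), with 1 cell per gene and comparison, red for higher and blue for lower with drug. Most mitotic genes are blue with ICG-001 at 96 h, where BIRC5 reads 0.04 in HCT116 and 0.12 in PANC1 and EPR1 reads 1.00 and 0.84.

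Of 12 listed genes that, like BIRC5, are transcribed late in the cell cycle, 11 were matched and tested. With ICG-001 at 96 h, 5 of the 11 were at least 1.5-fold lower in HCT116 (list median -0.56), against 5.38% of all genes, and 3 of the 11 in PANC1 (list median -0.41), against 3.77%. BIRC5 was above all 11 in HCT116 and above 10 of 11 in PANC1, where the exception was CDC20 (0.15), picked out here after its value was seen. After 12 h of ICG-001, 1 of the 11 was at least 1.5-fold higher and 1 lower in HCT116 (9.49% of all genes either way) and 0 in PANC1 (2.67%), and BIRC5 was above 7 of the 11 in each line. TOP2A, the topoisomerase that untangles sister chromatids, had log2 ratios of -0.70 and -0.72 with ICG-001 in HCT116 at 12 and 96 h. After 96 h of C646 the list had a median of 0.04 (HCT116) or -0.05 (PANC1), with 0 of the 11 genes at 1.5-fold in either line, against 3.26% and 4.21% of all genes. After 12 h of C646, 1 of the 11 was at least 1.5-fold higher in HCT116 (2.77% of all genes), and in PANC1 2 were higher (4.23%) and 2 lower (2.86%). With C646, BIRC5 was above 9 of the 11 at 12 h and 10 of the 11 at 96 h in each line. Over the 8 comparisons, 88 ratios of these genes were tested, of which 4 were at least 1.5-fold higher and 11 at least 1.5-fold lower. Pooled in the same way over all genes, 3.61% of ratios were higher and 2.62% lower. In DMSO alone, the HCT116 96 h column was below the 12 h column by more in BIRC5 (-0.53) than in any of the 11 genes (lowest -0.37).

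The genes whose profile was most like that of BIRC5 over the 12 columns, by Pearson's r of log2 signal centred within each line, were CSPP1 (r = 0.94), POLA2 (r = 0.93) and MELK (r = 0.93), out of 11373 genes above the limit in all columns. These 12 points share lines, time points and DMSO columns and are not independent. POLA2, a subunit of DNA polymerase alpha, had HCT116 log2 ratios of -0.25 (12 h) and 0.40 (96 h) for ICG-001, and of 0.48 and 0.62 for C646. BIRC5 had 12 annotated genes within 100 kb, of which 5 had a row. TK1, the S-phase thymidine kinase, was among them, and its log2 ratio for ICG-001 read -0.90 (12 h) and -0.76 (96 h) in HCT116 cells, and -0.45 and -1.03 in PANC1 cells. TK1 thus had lower signal with ICG-001 in comparisons where its neighbour BIRC5 had log2 ratios of -0.15 to 0.12.

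EPR1 was higher with drug than with DMSO in all 8 comparisons, the pattern for which it was chosen, by 1.79-fold to 2.97-fold. In HCT116, the EPR1 signal at 12 h was 187 with DMSO, 360.1 with ICG-001 and 469 with C646. The corresponding 96 h values were 178, 357 and 443. All 4 drug columns were above both DMSO columns, as in 11.5% of genes in this line, and the C646 columns were above the ICG-001 columns. In PANC1, the EPR1 signal at 12 h was 145 with DMSO, 267 with ICG-001 and 432 with C646. By 96 h these were 199, 356 and 358. Here too the 4 drug columns were above both DMSO columns, as in 13.3% of genes in this line, but at 96 h the drugs differed by only -0.01 (log2, ICG-001 over C646).

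For EPR1 in HCT116, the log2 ratio to DMSO was 0.95 (12 h) and 1.00 (96 h) for ICG-001, and it was 1.33 and 1.31 for C646. For EPR1 in PANC1, it was 0.88 and 0.84 for ICG-001, and it was 1.57 and 0.85 for C646. Between 0.118% and 2.65% of all genes tested in a comparison moved at least as far as EPR1. Of 12974 genes above the limit in every comparison, 1304 (10.1%) were higher with drug in all 8 and 24 (0.185%) were at least 1.5-fold higher in all 8. EPR1, chosen for this direction, was the fourth of these 24 by its smallest change. BIRC3 also belonged to the 1304, at the edge of the rule, with a smallest log2 ratio of 0.02, and XIAP was just outside it, with -0.02 in PANC1 with C646 at 12 h.

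EPR1 was dim in DMSO, and its folds depended on how background was treated. After normexp background correction they ran from 2.47-fold to 6.22-fold, with the largest in PANC1 with C646 at 12 h, where the DMSO signal of 145 was barely above the limit. Against the other DMSO column of the line, the EPR1 ratio in PANC1 with ICG-001 at 12 h fell to 1.34-fold, below the threshold, while the other 7 ratios remained at or above 1.91-fold.

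Over the 8 comparisons, the median log2 ratio was 0.12 for BIRC5 and 0.97 for EPR1, and the choice of EPR1 fixed its direction. Over the 12 columns centred within lines, the correlation of their log2 signals was 0.41 (0.36 in HCT116 and 0.54 in PANC1, over 6 columns each). The columns share lines, time points and DMSO, so this value is a description. The profiles most like that of EPR1 were those of ZNF672 (r = 0.97), a zinc finger gene, and of LOC642947 (r = 0.96) and LOC389286 (r = 0.96), named here as in the table. ZNF672 had log2 ratios from 0.37 to 1.12 and LOC389286 from 0.69 to 1.53 over the 8 comparisons.

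**Figure D3:**
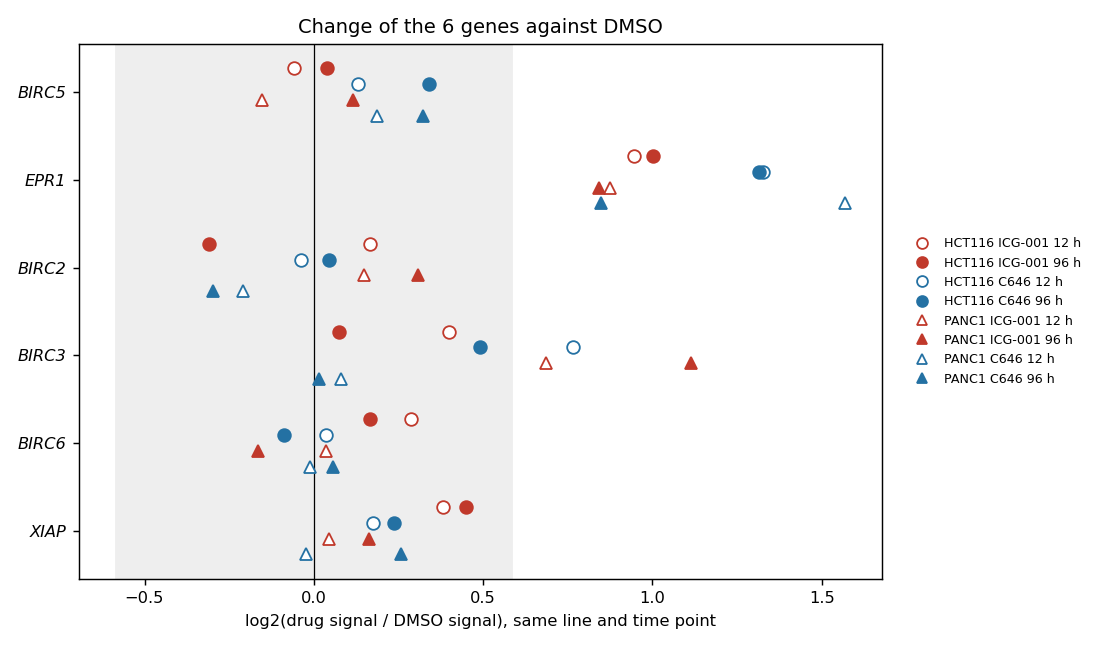
Log2 ratio of drug over DMSO signal (x axis) for each of the 6 genes, with 1 point per comparison, circles for HCT116 and triangles for PANC1, red for ICG-001 and blue for C646, open at 12 h and filled at 96 h. The grey band spans changes of less than 1.5-fold, and outside it lie the 8 points of EPR1 and 3 points of BIRC3.

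BIRC3, which codes for the ubiquitin ligase cIAP2, reached 1.5-fold with a different drug in each line. In PANC1, the BIRC3 signal at 12 h was 1221 with DMSO, 1965 with ICG-001 and 1290.1 with C646. In the same order, the 96 h signals were 1431, 3098 and 1448. The ICG-001 columns were above all the others, and the C646 columns were next to their DMSO columns. In HCT116, the BIRC3 signal at 12 h was 280.2 with DMSO, 369 with ICG-001 and 477 with C646. Signals at 96 h were 406, 427 and 569.8. Here the C646 columns were above all the others, and the ICG-001 column at 12 h was below the DMSO column at 96 h.

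In PANC1 the BIRC3 ratio with ICG-001 was 1.61-fold at 12 h and 2.16-fold at 96 h, and with C646 it was 1.06-fold and 1.01-fold. In HCT116 the ratio with C646 was 1.70-fold at 12 h and 1.40-fold at 96 h, and with ICG-001 it was 1.32-fold and 1.05-fold. In the same HCT116 C646 columns CD68, listed as a marker of other cell types, was 1.56-fold and 1.54-fold higher. In the PANC1 ICG-001 columns its ratio was 0.87-fold at 12 h and 1.07-fold at 96 h. A link of CD68 with BIRC3 was not tested. The DMSO columns themselves differed in BIRC3 by 0.53 (log2, 96 h over 12 h) in HCT116 and 0.23 in PANC1. Against the other DMSO column of the line, the ratio fell to 1.17-fold in HCT116 with C646 at 12 h and rose to 2.03-fold at 96 h, it rose to 1.53-fold in HCT116 with ICG-001 at 96 h, and it fell to 1.37-fold for PANC1 ICG-001 at 12 h. Against the mean of both DMSO columns, the HCT116 C646 ratios were 1.41-fold and 1.69-fold, and that of PANC1 with ICG-001 at 12 h was 1.49-fold. After normexp background correction, the HCT116 C646 ratio at 96 h became 1.51-fold. The rise in PANC1 with ICG-001 at 96 h remained past 1.5-fold under all these choices.

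BIRC2, which codes for cIAP1 and lies beside BIRC3, did not reach 1.5-fold against DMSO. In PANC1, the BIRC2 signal at 12 h was 2261 with DMSO, 2506 with ICG-001 and 1956 with C646. It was 2136, 2645 and 1736 at 96 h. The ICG-001 columns were above both DMSO columns and the C646 columns below them. In HCT116, the BIRC2 signal at 12 h was 852 with DMSO, 957 with ICG-001 and 831 with C646. It was 1153, 930.0 and 1188 at 96 h. HCT116 showed no such order, and its DMSO columns differed by 0.44 (log2), more than any of the 8 drug ratios of BIRC2, which ran from -0.31 to 0.31. The correlation of BIRC2 with BIRC3 over the 12 centred columns was 0.62.

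The NF-kB target list, chosen for textbook targets other than BIRC3 with earlier results of these data known, held 12 genes. In PANC1 cells treated with ICG-001, 1 of 11 tested was at least 1.5-fold higher at 12 h (2.31% of all genes) and 4 of 11 at 96 h (4.07%), with list medians of 0.09 and 0.40. BIRC3 was above all 11 at both time points. By contrast, 7 of 12 targets were above BIRC3 in HCT116 with ICG-001 at 96 h, and 2 of 10 and 4 of 11 were in PANC1 with C646 at 12 and 96 h. In PANC1 with ICG-001, NFKBIA, the inhibitor that NF-kB induces in its own feedback loop, had log2 ratios of 0.65 (12 h) and 0.86 (96 h). TNFAIP3, another feedback gene, had 0.09 and 0.36 in the same PANC1 comparisons with ICG-001. In HCT116 with C646, 0 of the tested targets were at least 1.5-fold higher at either time point, where 2.77% and 1.98% of all genes were, with list medians of -0.16 and -0.05, and BIRC3 was above all 9 tested at 12 h and all 10 at 96 h. RELB, a subunit of the non-canonical pathway, had log2 ratios of -0.59 and -0.64 in PANC1 with C646. Over the 8 comparisons, 83 ratios of the list were tested, of which 6 were at least 1.5-fold higher (3.61% over all genes) and 4 lower (2.62%).

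The cIAP signalling list held 11 genes of the receptor complexes in which cIAP1 and cIAP2 act. In HCT116 with ICG-001, 3 of 10 tested were at least 1.5-fold higher at 12 h (5.09% of all genes) and 5 of 10 at 96 h (5.4%). TNFRSF10B, the TRAIL death receptor DR5, had log2 ratios of 1.31 and 0.93. CFLAR, which codes for the caspase-8 inhibitor c-FLIP, had 0.73 and 0.84, and the death-domain adaptor FADD had 0.63 and 0.75. The higher genes thus included a death receptor and an inhibitor of its caspase. Over the 8 comparisons, 85 ratios were tested, of which 10 were at least 1.5-fold higher (3.61% over all genes) and 2 lower (2.62%), and 8 of the 10 came from HCT116 with ICG-001.

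**Figure D4:**
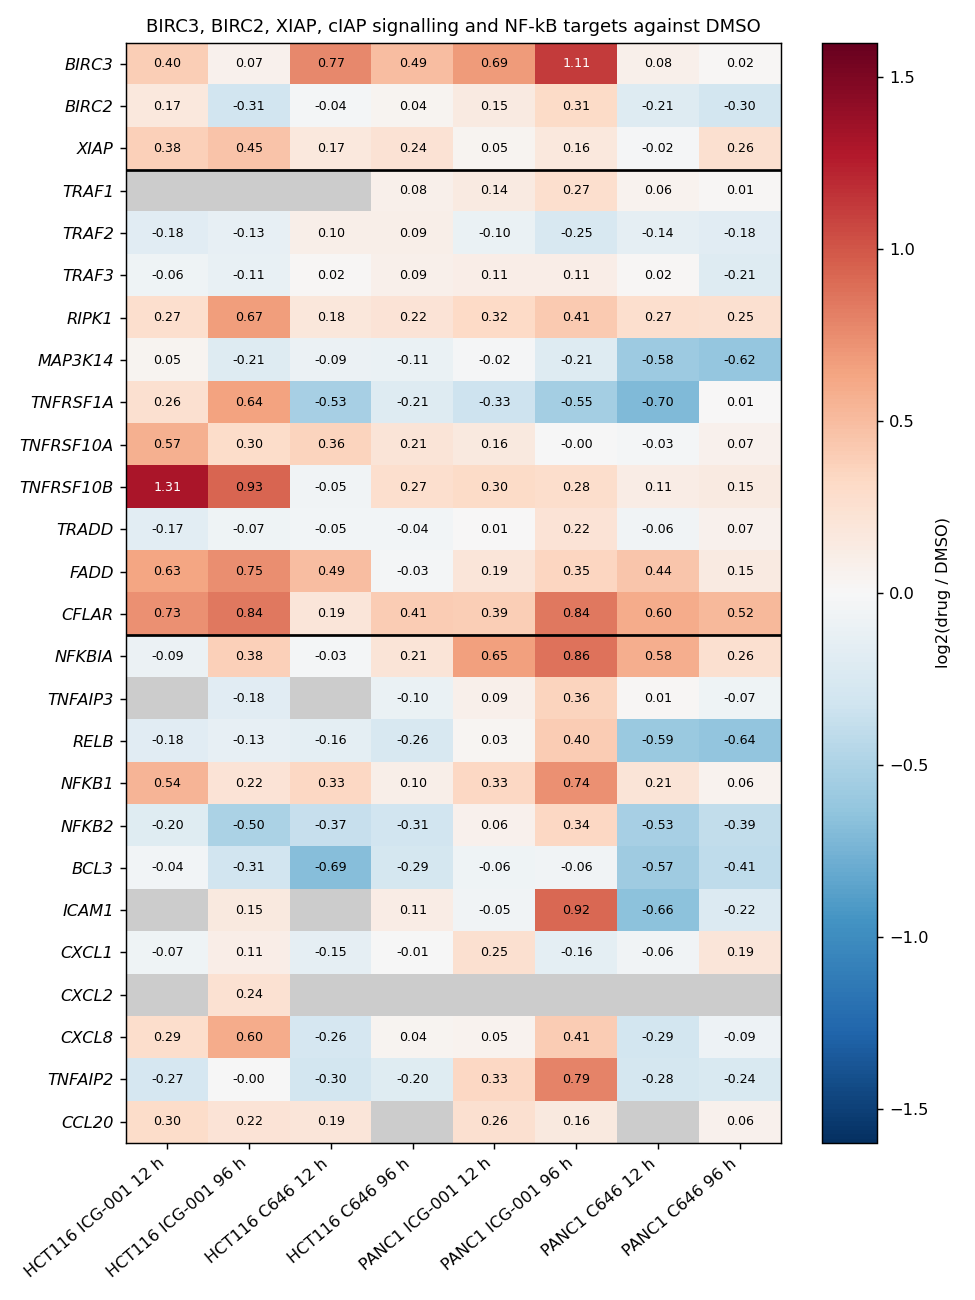
Log2 ratio of drug over DMSO for BIRC3, BIRC2 and XIAP (top), cIAP signalling genes (middle) and NF-kB targets (bottom), with 1 cell per gene and comparison, red for higher and blue for lower with drug, and grey where both columns were at or under the detection limit. BIRC3 reads 0.69 and 1.11 with ICG-001 in PANC1, above all 11 NF-kB targets tested, and TNFRSF10B reads 1.31 and 0.93 with ICG-001 in HCT116.

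XIAP, the direct caspase inhibitor, did not reach 1.5-fold in any comparison. In HCT116, the XIAP signal at 12 h was 177 with DMSO, 230.5 with ICG-001 and 199.7 with C646. It was 168, 229 and 198 at 96 h. All 4 drug columns were above both DMSO columns, as for EPR1, with log2 ratios of 0.38 and 0.45 for ICG-001 and 0.17 and 0.24 for C646. In PANC1, the XIAP signal ranged from 237 to 285 and overlapped between DMSO and drug columns, with log2 ratios from -0.02 to 0.26. Against DMSO, ICG-001 columns were higher in all 4 comparisons for XIAP, BIRC3 and EPR1, as they were for 19.8% of 13458 genes. XIAP was dim in HCT116, and after normexp background correction its ratios with ICG-001 became 1.65-fold and 1.86-fold.

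BIRC6, which codes for the giant IAP apollon or BRUCE, did not reach 1.5-fold in any comparison. Its signal ranged from 276 to 354 in HCT116 and from 282 to 330.3 in PANC1. The log2 ratio ran from -0.17 to 0.29 over the 8 comparisons, and its DMSO columns differed by 0.02 in HCT116 and -0.03 in PANC1.

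Of the remaining IAP genes, NAIP and BIRC8 were at or under the limit in all 12 columns and BIRC7 was above it in 1. Of the IAP antagonists DIABLO, HTRA2, XAF1 and SEPTIN4, 28 ratios with DMSO were tested and 0 reached 1.5-fold. Of the caspases and apoptosome genes, 61 ratios were tested and 1 reached it. These counts stand against 3.61% higher and 2.62% lower ratios over all genes. That gene was APAF1, the core of the apoptosome, which was lower in HCT116 with ICG-001 at 12 h (log2 ratio -0.79), named after its value was seen.

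The drugs were compared directly at the same dose and time point, without a DMSO column. Of 24 ratios of ICG-001 over C646, 4 reached 1.5-fold, all in PANC1. At 12 h, where 2.65% of all genes reached 1.5-fold in either direction, EPR1 was lower with ICG-001 (log2 ratio -0.69) and BIRC3 higher (0.61). At 96 h (7.24% of all genes), BIRC3 was higher with ICG-001 by 1.10 and BIRC2 by 0.61. In HCT116, 0 of the 6 genes reached 1.5-fold at 12 h (6.63% of all genes) or 96 h (6.82%). BIRC3 pointed the other way there, with log2 ratios of -0.37 and -0.41, both higher with C646. That the lines differed in this ratio was not tested, since each had 1 column per group. BIRC5 was lower with ICG-001 than with C646 in all 4 comparisons, by -0.19 and -0.30 in HCT116 and -0.34 and -0.21 in PANC1, as were 17.3% of 13519 genes and as was EPR1. Each of these differences rests on 1 column per group, and no interval over lines or time points was computed.

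The 96 h columns were also set against the 12 h columns of the same treatment, which differ in culture conditions as well as time. Between the DMSO columns, 0 of 6 reached 1.5-fold in HCT116 (3.29% of all genes) and 0 of 6 in PANC1 (1.37%). The widest gaps, 96 h over 12 h, were in HCT116 for BIRC3 (0.53) and BIRC5 (-0.53) and in PANC1 for EPR1 (0.45). Between 96 h and 12 h of the same drug, 0 of 6 reached it in HCT116 with ICG-001 (7.21% of all genes), 0 with C646 (7.45%), 1 in PANC1 with ICG-001 (4.22%) and 0 with C646 (0.509%). The 1 gene was BIRC3, which was 1.58-fold higher at 96 h than at 12 h. After normexp correction, 4 more gaps passed 1.5-fold: in the HCT116 DMSO columns BIRC3 (1.66-fold higher at 96 h) and BIRC5 (1.55-fold lower), and EPR1 in PANC1 with DMSO (1.94-fold higher) and ICG-001 (1.51-fold higher).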

How the data were processed

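RNA was measured on Illumina HumanHT-12 BeadChips. The authors exported each array's signal intensity (linear) from GenomeStudio (version not given in the sources used here), quantile normalized but with background left in, and deposited the mean over replicate arrays, 1 value per gene name and group. The number of arrays limits the precision.

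Signals were taken to log2 and subtracted between columns of a line. The detection limit was the peak of a column's log2 signals plus 2.33 SD, the SD coming from values below the peak. Genes above the limit in either column of a comparison were tested, and called at 1.5-fold. No hypothesis test was run. The procedure was tested on simulated data, whose outcome is not reported here and is not used as support.

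The members and lists were chosen with earlier results of these data known. Named list genes passed 1.5-fold one way at 12 h and 96 h with a drug in a line, at most 3 per list, line and drug. AURKB, INCENP, CDCA8, NFKBIA and TNFAIP3 were always named, with the 3 most similar profiles of BIRC5, EPR1 and BIRC3 and genes within 100 kb of BIRC5, BIRC2 and BIRC3.

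Alternatives were thresholds of 1.2-fold and 2-fold, no filter, a limit at 5 SD, normexp correction (offset 16) with quantile normalization, median centring, quantile normalization over 12 columns, and other DMSO columns. Python 3.11.15, numpy 2.4.6, pandas 2.3.3, scipy 1.17.1, matplotlib 3.10.9 and limma 3.58.1 in R 4.3.3 were used.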

Additional observations from a re-analysis of the deposited data

How the results depend on the processing

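With a 1.2-fold threshold in place of 1.5-fold, 21 ratios of the 6 genes against DMSO were counted, 12 of ICG-001 over C646, 4 of DMSO over time, 6 of drug over time and 167 of the pathway lists. With a 2-fold threshold the counts were 5 against DMSO, 1 of ICG-001 over C646, 0 of drug over time and 4 of the lists (main values 11, 4, 0, 1 and 49). After normexp correction, 3 ratios of DMSO over time, 2 of drug over time and 94 of the lists were counted. The other alternatives kept these counts within 1.5 times the main ones. EPR1 was higher than DMSO in 8 of 8 comparisons under each alternative run for it. It was chosen for this direction in the same values, so this is a description and gives no independent support. Of 636 values of single members under the alternatives, 539 moved by less than the SD of background genes and 97 by more, and 0 of those at 1.5-fold or more changed direction. A changed threshold, filter or limit cannot alter a ratio, so such values stayed by construction and the 539 overstates stability. Against the DMSO column of the other time point, 6 of 48 values crossed 1.5-fold and 10 changed sign. At a limit of 5 SD, EPR1 in PANC1 DMSO at 12 h was no longer above background. No paired analysis was possible because replicates were averaged and the columns carry no replicate number, and pairing over lines and time points was not run. Means of a few arrays with no spread cannot separate a difference near 1.5-fold from variation between arrays.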

Other observations

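BIRC3 and BIRC2 lie in a cluster of annotated genes with rows for YAP1, the Hippo pathway co-activator, and TMEM123, a membrane glycoprotein. TMEM123 was lower with both drugs in HCT116, with log2 ratios against DMSO of -0.65 and -0.46 for ICG-001 and -0.48 and -0.48 for C646 at 12 and 96 h. In PANC1 its log2 ratios were -0.10 and -0.09 for ICG-001 and -0.17 and -0.15 for C646. BIRC3 had positive ratios in all of these comparisons. Near BIRC5, AFMID, an enzyme of tryptophan breakdown, had HCT116 log2 ratios of -0.29 (12 h) and -0.32 (96 h) for ICG-001, and of 0.22 and 0.24 for C646. The PANC1 ratios of AFMID were 0.17, 0.09, 0.39 and 0.22 in the same order. SYNGR2, also near BIRC5, was above the detection limit in 0 of 12 columns, TMC8 in 6 and TMC6 in 12.

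Among the profiles most like that of BIRC3 over the 12 columns were APBA3 (r = 0.96), RAB3B (r = 0.94) and SBF1 (r = 0.92). APBA3, an adaptor protein gene, had log2 ratios with ICG-001 of 0.39 and 0.66 in PANC1 and 0.24 and 0.11 in HCT116 at 12 and 96 h. Between members, the correlation over the centred columns was -0.61 for BIRC5 with BIRC2 and 0.59 for EPR1 with XIAP. These points share lines, time points and DMSO columns.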
